A study of Drosophila melanogaster with 4 samples.

Results

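Cytoplasmic processing bodies (P-bodies) are granules of untranslated mRNA and of the proteins that repress it and remove its 5′ cap. Transcripts of 9 Drosophila melanogaster genes for such proteins (me31B, tral, cup, Patr-1, Edc3, Ge-1, DCP1, DCP2 and pcm) were chosen by their symbols from the 17806 named genes of a count table. The RNA came from whole adult flies, with 200 flies per sample, 100 of each sex, which were ground, exposed to ultraviolet light and lysed. PABP IP 1 and 2 hold RNA recovered with PABP, the protein that binds poly(A) tails, on magnetic FLAG beads, and the labels assign them to intestinal progenitor cells. Input 1 and 2 hold RNA taken from the whole extract ahead of that step, which the labels assign to all cells. The labels used here give no genotype, strain, age, driver of the tagged protein or treatment beyond ultraviolet exposure, for either group. Whether the 2 samples of each group stem from separate collections of flies is not stated, so the p-values describe the spread among these libraries alone, and that spread may be technical.

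Decay of most cytoplasmic mRNAs in flies begins with shortening of the poly(A) tail, after which the cap is cut off and the body of the message is degraded from its 5′ end. The enzyme DCP2 removes the cap, DCP1, Edc3, Ge-1 and Patr-1 activate or hold it, and the exonuclease pcm (the fly XRN1) digests the exposed RNA. The RNA helicase me31B and its partners tral and cup keep mRNAs silent without necessarily destroying them, a mode known from the germline, where maternal mRNAs are stored in such particles. P-bodies have also been described in the progenitors of the adult fly gut, the stem cells and enteroblasts that renew its lining.

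The libraries held 8987420 (PABP IP 1), 10761349 (PABP IP 2), 2464629 (input 1) and 3346231 (input 2) counts in total. The comparison asks which transcripts PABP of progenitors carries relative to the RNA of the animal, and since the series has neither a mock precipitation nor whole RNA from purified progenitors, expression, binding by PABP and background on the beads cannot be told apart. In bulk libraries such as these, fewer cells of a type and less RNA per cell cannot be told apart either. All 6 progenitor markers listed (esg, Dl, Sox21a, Sox100B, klu and zfh2) were higher in the IP, with a summed level of 8545 and 9280 CPM in the IP libraries, against 103.5 and 102.9 CPM in the input libraries. CPM here are counts scaled to a common library size by TMM, a normalisation that centres the libraries on the bulk of genes. In edgeR's quasi-likelihood test, at an adjusted p (Benjamini-Hochberg) under 0.05, the IP was above the input for 37.1% of the 9989 genes and below it for 38.8%. By this test 5 of 6 enterocyte markers, 4 of 5 muscle markers and 7 of 8 female germline markers were lower in the IP. The exceptions, each called higher, were Myo31DF of the enterocyte list (log2 fold change 0.48), how of the muscle list (2.82) and grk of the germline list (1.15). Of 5 enteroendocrine markers 1 was higher, 1 lower and 3 were not called.

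The transcripts of the decapping enzyme DCP2 and of Edc3, Ge-1 and Patr-1, which enhance or scaffold decapping, were higher in the PABP IP, by 2.86-fold to 12.3-fold. The transcript of the activator subunit DCP1 was lower, and with TMM scaling this call rested on 1 input library. DCP1 was also called lower under 3 other scalings (upper quartile, library size, authors' factors). Under those 3 scalings 5719, 6347 and 5384 of the 9989 genes tested were lower. DCP1 kept percentile 40.8 of log2 fold changes under each of them. Among the repressors, tral was 1.40-fold higher with TMM but turned below 0 under those 3, and me31B was not called with TMM and lower under them. The exonuclease gene pcm, likewise not called with TMM, was lower under them too. Among all genes tested, me31B stayed near percentile 52 and pcm near percentile 54 under these scalings. Of the 9 genes, 8 passed the filter on low counts, each with at least 138 counts in every library. In the same test 5 of the 8 were higher in the IP (DCP2, Edc3, Ge-1, Patr-1 and tral), where 37.1% of the 9989 genes tested were higher. DCP1 alone of the 8 was lower, where 38.8% of all genes tested were lower, and me31B and pcm were not called. The median log2 fold change of the 8 genes was 1.003, beside -0.10 over all genes tested. With genes so often called in either direction (75.9% of those tested), the count of calls is not in itself a result about these genes, and the size of each change and its place among all genes are given below.

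**Figure D1:**
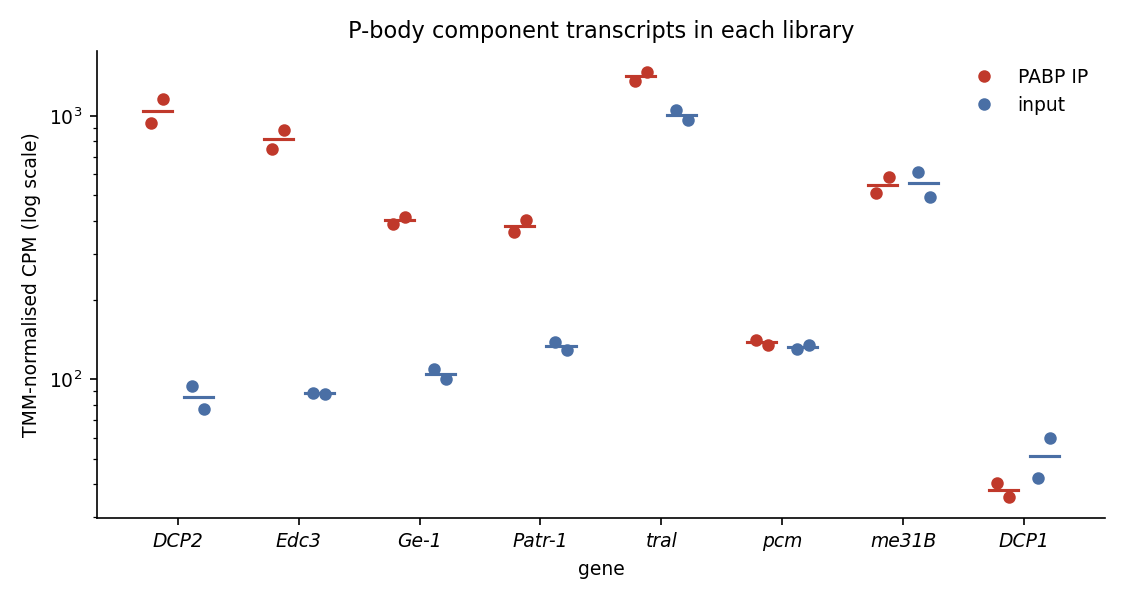
Level of each of the 8 measured P-body component transcripts, as TMM-normalised CPM on a log axis, in the 2 PABP IP libraries (red) and the 2 input libraries (blue); points are libraries and bars are group means. The groups are far apart for DCP2, Edc3, Ge-1 and Patr-1, and lie close together for tral, pcm and me31B; heights are not corrected for gene length and are not to be compared between genes.

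DCP2, the catalytic subunit that hydrolyses the cap, showed the largest change of the set. Its level was 937 and 1156 CPM in PABP IP 1 and 2, against 94.0 and 77.0 CPM in input 1 and 2. Both IP libraries lay above both input libraries, as they did for 42.3% of the genes tested. The fold change was 12.3 (log2 3.62 ± 0.15 SE, 95% interval 3.31 to 3.93, adjusted p = 8.77e-13), which placed DCP2 at percentile 97.6 of log2 fold changes over all genes tested. The values in raw counts were 6395 and 9052 in the IP, against 308 and 349 in the input, so the input value rests on far fewer reads.

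Its activator subunit DCP1, which binds DCP2 directly, stood apart from it. DCP1 had 40.4 and 35.9 CPM in PABP IP 1 and 2, against 42.1 and 60.0 CPM in input 1 and 2. Both IP libraries lay below both input libraries, a pattern shown by 46.3% of the genes tested, but PABP IP 1 and input 1 were close together. The change was -0.44 ± 0.15 on the log2 scale (SE, adjusted p = 0.0151), or 0.736-fold. This call rested on input 2: without that library the log2 fold change was -0.16 with an adjusted p of 0.455, and DESeq2 did not call it either (-0.36, adjusted p = 0.153). The counts of DCP1 were the smallest of the set, at 276 and 281 in the IP libraries, against 138 and 272 in the input libraries. The RefSeq gene table shows a partial overlap of 14 bases between DCP1 and CG5597, so reads at that end are uncertain. Dcp-1, a caspase gene that shares older names with DCP1, is another gene and was kept out.

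Because DCP1 and DCP2 were counted in the same libraries, their ratio does not depend on how the libraries are scaled. DCP2 had 23.2 and 32.2 counts for each count of DCP1 in the IP libraries, against 2.23 and 1.28 in the input libraries. The ratio was thus 16.1-fold higher in the IP. With 2 libraries per group, a two-sided exact permutation test cannot give less than p = 0.333, the value found here and for each of the 9 pairs of genes compared in this way.

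Edc3 and Ge-1, which enhance decapping, and Patr-1, the fly Pat1, which links the decapping enzyme to deadenylated mRNA, were higher in the IP to differing degrees. Edc3 had 750 and 888 CPM in PABP IP 1 and 2, against 89.1 and 88.3 CPM in input 1 and 2. Its fold change of 9.23 (log2 3.21 ± 0.13 SE, adjusted p = 7.52e-13) stood at percentile 96.3 of all genes tested. The SD of Edc3 was 97.2 CPM in the IP and 0.581 CPM in the input (n = 2 each). The input counts were only 292 and 400 and the mean levels differ, so these SDs do not rank the precision of the groups. A small nucleolar RNA gene, snoRNA:Edc3-a, lies inside Edc3 and had 0 counts in the 4 libraries.

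Ge-1, the large scaffold known in other animals as EDC4, had 388 and 414 CPM in PABP IP 1 and 2, against 109.6 and 100.2 CPM in input 1 and 2. The change was 3.83-fold (log2 1.94 ± 0.11 SE, adjusted p = 4.26e-11). Patr-1 had 362 and 404 CPM in PABP IP 1 and 2, against 138.3 and 129.8 CPM in input 1 and 2. Its change was 2.86-fold (log2 1.52 ± 0.11 SE, adjusted p = 1.09e-09). For both genes each IP library lay above both input libraries, as for 42.3% of the genes tested. Relative to each other, Patr-1 had 0.933 and 0.975 counts per Ge-1 count in the IP, against 1.26 and 1.30 in the input, so that Ge-1 overtook Patr-1 in raw counts in both IP libraries.

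The 5′ to 3′ exonuclease gene pcm, which acts after the cap is gone, had 141.6 and 135.5 CPM in PABP IP 1 and 2, against 130.6 and 135.1 CPM in input 1 and 2. PABP IP 2 and input 2 were almost the same. The log2 fold change was 0.06 ± 0.10 SE with a 95% interval of -0.15 to 0.27 (adjusted p = 0.596). Under 3 other scalings (upper quartile, library size, authors' factors) pcm was called lower (-0.55, -0.79 and -0.44). So were 5719, 6347 and 5384 of the 9989 genes tested. Per count of pcm there were 6.61 and 8.53 counts of DCP2 in the IP, against 0.720 and 0.570 in the input, a ratio 11.7-fold higher in the IP.

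The repressors me31B and tral carried the most counts of the set in the input. The helicase gene me31B had 508 and 589 CPM in PABP IP 1 and 2, against 614 and 494 CPM in input 1 and 2. The groups overlapped, and the log2 fold change was -0.01 ± 0.13 SE with a 95% interval of -0.28 to 0.26 (adjusted p = 0.930). The gene tral, whose LSm-domain protein binds me31B, had 1363 and 1469 CPM in PABP IP 1 and 2, against 1051 and 966 CPM in input 1 and 2. All of its IP values exceeded its input values, as for 42.3% of the genes tested. The change was 1.40-fold (log2 0.49 ± 0.13 SE, adjusted p = 0.00214). There were 2.68 and 2.50 counts of tral per count of me31B in the IP, against 1.71 and 1.95 in the input, a ratio 1.41-fold higher in the IP.

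Edc3 and tral both carry an LSm domain and bind me31B, and their balance differed more between the groups than that of tral and me31B. Per count of tral there were 0.551 and 0.604 counts of Edc3 in the IP, against 0.0848 and 0.0914 in the input, a ratio 6.55-fold higher in the IP. For Patr-1, another partner of me31B, there were 0.711 and 0.686 counts per count of me31B in the IP, against 0.225 and 0.263 in the input, a ratio 2.87-fold higher in the IP.

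Markers listed for the female germline, a tissue that stores me31B and tral with maternal mRNAs, differed in level between the groups beside these values. Of the 8 markers listed 7 were lower in the IP, among them osk (log2 fold change -2.44) and orb (-2.28), and grk was higher (1.15). Their summed level was 1019 to 1207 CPM in the IP, against 5793 to 5895 CPM in the input, and none of the 8 was at 0. Most of that sum came from Yp1 and Yp2, which were among the 7 lower genes. Both are yolk protein genes that the fat body, a somatic tissue, expresses, so the sum is not a measure of germline RNA. The part of these markers in the values of me31B and tral was not tested.

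The eIF4E-binding repressor gene cup could not be measured, since it had 0 counts in all 4 libraries. In the RefSeq table cup has the same start and end as CG34310, which also had 0 counts, and the genes Galt and Spn27A, which lie inside it, had 0 counts as well. Of 305 protein-coding genes that share both ends with another gene, 302 (99.0%) had 0 counts in all 4 libraries, against 2111 (16.4%) of 12905 other protein-coding genes. An absence of cup RNA can therefore not be read from these counts. Its neighbour cort, which overlaps it by 99 bases, had counts of 57 and 78 in the IP libraries, against 109 and 165 in the input libraries.

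**Figure D2:**
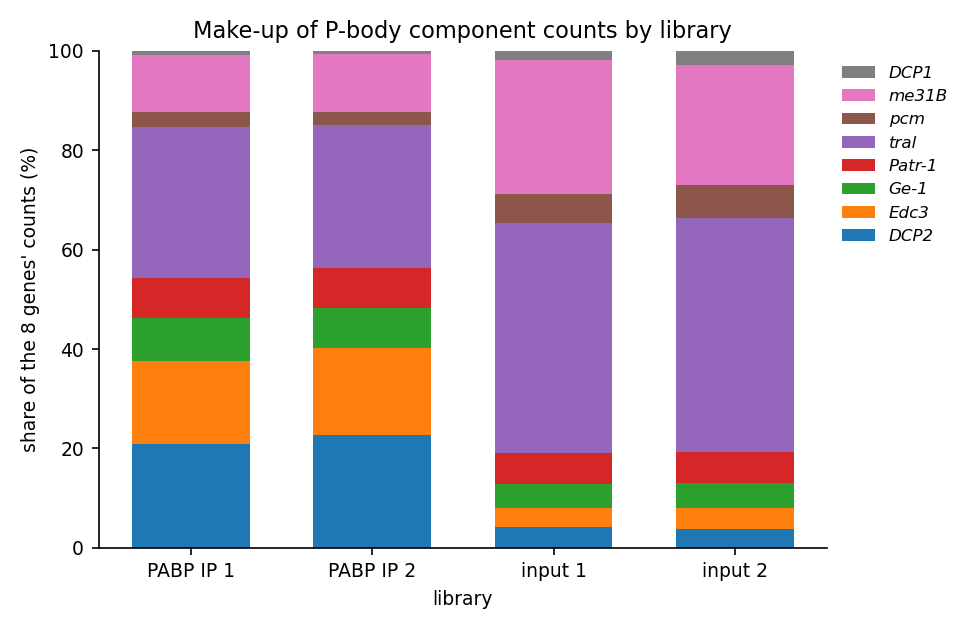
Share of the summed counts of the 8 measured P-body component genes taken by each gene, in percent, in the 2 PABP IP libraries and the 2 input libraries. DCP2 and Edc3 take 20.9% and 16.7% in PABP IP 1, against 4.14% and 3.93% in input 1, and me31B and tral take the smaller part of the IP bars that they fill in the input bars.

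As a whole the 8 genes took 0.341% and 0.370% of all counts in the IP libraries, against 0.302% and 0.278% in the input libraries. Their make-up, which no scaling alters, differed between the groups. DCP2 took 20.9% and 22.7% of the 8 genes' counts in the IP libraries, against 4.14% and 3.76% in the input libraries. The 95% Wilson intervals of these shares, which cover counting error only, were 20.4 to 21.3% and 22.3 to 23.1% in the IP and 3.71 to 4.62% and 3.39 to 4.16% in the input.

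The repressor tral took 30.4% and 28.9% of the 8 genes' counts in the IP, against 46.3% and 47.1% in the input, and it remained the gene with the largest share in each of the 4 libraries. The share of me31B was 11.3% and 11.6% in the IP, against 27.1% and 24.1% in the input. DCP1 took 0.900% and 0.705% in the IP, against 1.86% and 2.93% in the input, the smallest share in every library. Between these, DCP2 was the gene with the second largest share in both IP libraries, a place held by me31B in both input libraries.

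Levels can be compared between genes only per length, and the deposited length of all 9 genes equals the whole gene span, introns included. Ranks and percentiles on this length are therefore not ranks of transcript amount, and the part of introns in them was not tested. On this scale of CPM per kilobase of gene span, the order in the IP was tral (240.1 ± 12.7, SD, n = 2), me31B (194 ± 20.04), Edc3 (181 ± 21.5), DCP2 (136 ± 20.2), Patr-1 (78.8 ± 6.16), Ge-1 (69.9 ± 3.29), DCP1 (25.2 ± 2.12) and pcm (22.2 ± 0.693). Only me31B and Edc3 overlapped among neighbours in that order. Some gaps were small, as between DCP1 (23.7 in PABP IP 2) and pcm (22.6 in PABP IP 1), and the order was not tested. In the input the order was me31B (196 ± 29.8), tral (171 ± 10.2), DCP1 (33.8 ± 8.38), Patr-1 (27.6 ± 1.23), pcm (21.2 ± 0.505), Edc3 (19.6 ± 0.128), Ge-1 (18.3 ± 1.15) and DCP2 (11.1 ± 1.56). There the neighbours me31B and tral overlapped, as did DCP1 and Patr-1. DCP2 thus had the lowest level per kilobase of the 8 in the input, and the fourth highest in the IP. Among all genes tested, the level of DCP2 per kilobase lay at percentile 95.8 in the IP, against percentile 54.0 in the input. For me31B these were percentiles 97.2 in the IP and 97.7 in the input.

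**Figure D3:**
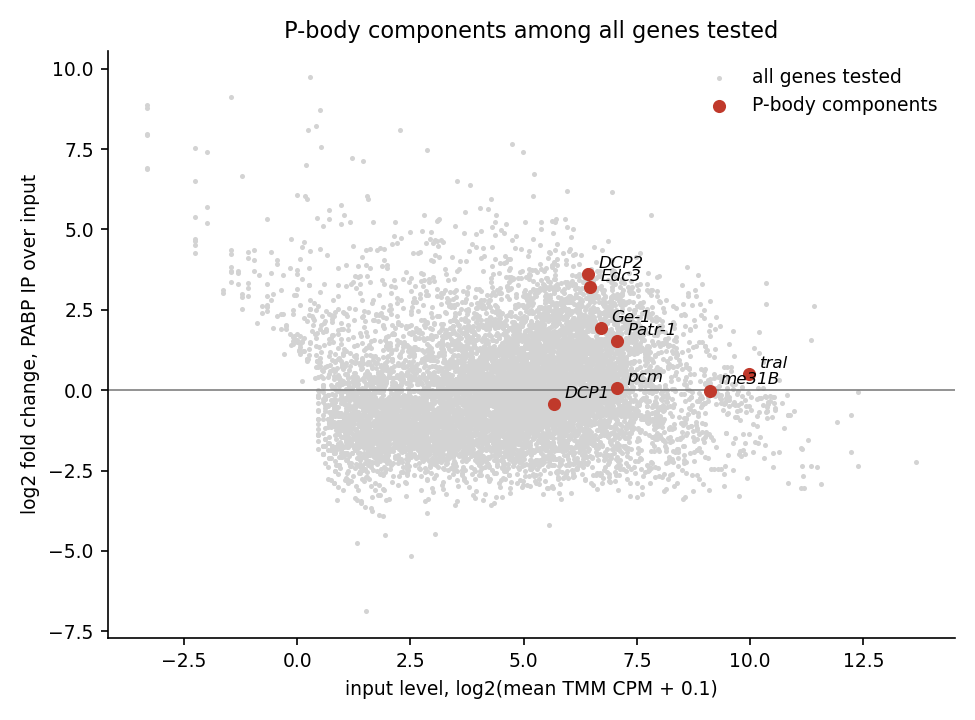
Log2 fold change of PABP IP over input against the input level, as log2 of mean TMM-normalised CPM with a small constant added, for all 9989 genes tested (grey) and the 8 measured P-body components (red). DCP2 and Edc3 lie in the upper part of the cloud for their input level but not at its edge, and pcm, me31B and DCP1 lie near the middle of the range.

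Fold changes over all genes were higher for longer genes, and these genes differ in length. Across the 9989 genes tested, log2 fold change and deposited length had a Spearman rho of 0.282, given as a description, since genes are not independent and share the same libraries. The median log2 fold change was -0.54, -0.34, 0.14 and 0.57 from the shortest to the longest of 4 length classes of near equal size. DCP2, of 7690 bases, fell in the longest class and DCP1, of 1513 bases, in the class of median -0.34. The other 6 measured genes fell in the class of 2684 to 6568 bases, where 44.7% of genes were higher and 34.4% lower. Within that class log2 fold changes ran from -0.01 for me31B (2832 bases) and 0.06 for pcm (6253 bases) to 3.21 for Edc3 (4529 bases). The part of length in the differences between these genes was not tested.

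**Figure D4:**
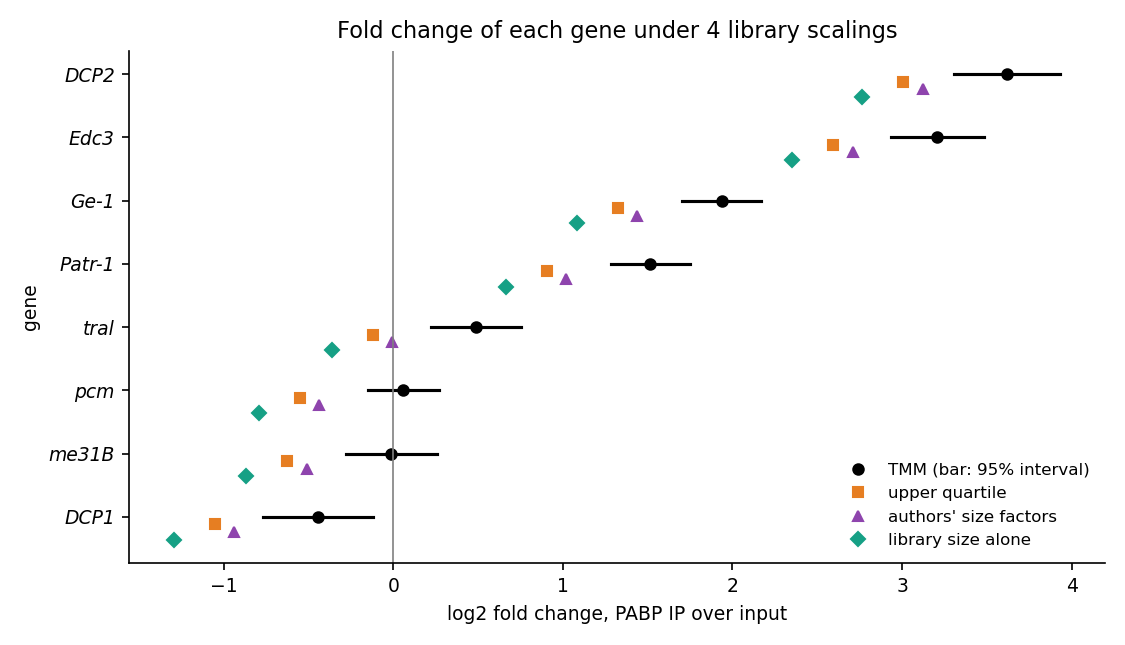
Log2 fold change of PABP IP over input for the 8 measured genes under TMM (black, with its 95% interval), upper-quartile factors (orange), the authors' size factors (purple) and library size alone (green). DCP2, Edc3, Ge-1 and Patr-1 stay above 0 under all 4, DCP1 stays below 0, tral and pcm lie on both sides, and me31B lies at or below 0.

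The place of zero depends on how the libraries are scaled, and for tral and pcm this decides the direction, and for me31B the call. The median log2 fold change of all genes tested was -0.10 with TMM. It was -0.71 for upper-quartile factors, -0.95 for library size alone and -0.59 for the authors' size factors, and the share of calls that were higher was 48.9%, 31.0%, 25.8% and 33.8% under these 4. Under each of them DCP2, Edc3, Ge-1 and Patr-1 were called higher, with the smallest values at library size alone (2.76, 2.35, 1.08 and 0.66). The log2 fold change of tral turned to -0.12, -0.36 and -0.01 under the last 3, lower by a call at library size alone (adjusted p = 0.00983). That of pcm turned to -0.55, -0.79 and -0.44, and me31B had -0.63, -0.87 and -0.51, all called lower. DCP1 had -1.05, -1.30 and -0.94, also called lower.

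A change of scaling shifts all genes nearly alike and so leaves ranks nearly fixed, while other fits can move them. Over the main setting and 14 alternatives, DCP2 lay between percentiles 97.0 and 97.8 of log2 fold changes, Edc3 between 95.4 and 96.6, Ge-1 between 84.3 and 87.5 and Patr-1 between 80.3 and 83.1. The repressor tral lay between percentiles 62.7 and 65.9 and pcm between 52.8 and 55.2. For me31B the range was percentile 46.9 to 55.9, and for DCP1 percentile 34.1 to 47.6. The authors' deposited table gives log2 fold changes in the same order, with 3.12 for DCP2, 2.71 for Edc3, 1.44 for Ge-1 and 1.02 for Patr-1. In the authors' deposited table tral stands at -0.01 (adjusted p = 0.987), pcm at -0.44 (7.93e-05), me31B at -0.51 (0.0465) and DCP1 at -0.93 (0.000643).

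The genes closest to DCP2 in level per kilobase over the 4 libraries, by Euclidean distance of log2 values, were Mtl (0.192), Cals (0.306) and lolal (0.312), with log2 fold changes of 3.67, 3.71 and 3.46. Those closest to DCP1 were CG5641 (0.173), CG11562 (0.219) and CG1648 (0.257), with log2 fold changes of -0.38, -0.27 and -0.53, of which that of CG11562 was not called (adjusted p = 0.176). Each distance is over 4 libraries of 2 groups, so it mostly reflects a shared level and a shared fold change.

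**Figure D5:**
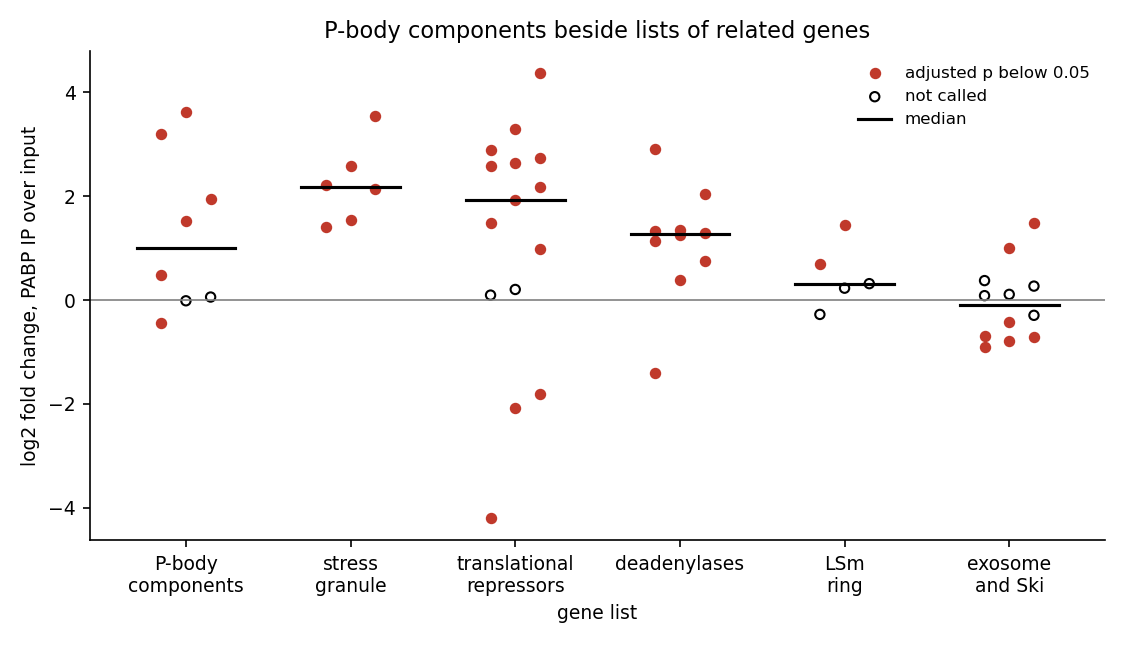
Log2 fold change of PABP IP over input for each tested gene of the P-body components and of 5 lists of related genes; filled red points have an adjusted p below 0.05, open points were not called, and the bar is the median. The medians are 1.003 for the P-body components, 2.18 for stress granule genes, 1.93 for translational repressors, 1.27 for deadenylases, 0.32 for the LSm ring and -0.10 for the exosome and Ski genes.

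Other genes of the same decay and repression routes were described by counts and medians. The LSm ring binds shortened tails together with Pat1 and promotes decapping. Of 7 genes listed for it 5 were tested, of which LSm7 (log2 0.69, adjusted p = 0.00144) and CG10418 (1.44, adjusted p = 4.96e-06) were higher and none lower, with a median of 0.32; 2 of 5 is near the 37.1% of all genes tested that were higher and shows nothing particular to the ring. LSm3, LSm1 and LSm7 are named as such in the files, while the other 4 listed genes have CG numbers only and were put in the list from background knowledge, so the list's membership is uncertain, and LSm-4 was not listed. LSm1, the ring subunit specific to the cytoplasm, was not called (0.23 ± 0.19 SE, adjusted p = 0.283). LSm3 and CG17768 had 0 counts in all 4 libraries, which, as for cup, is not read as an absence of their RNA. The ring transcripts were of low level in every library, with 109.0 and 109.7 CPM summed over the list in the IP, against 79.0 and 79.5 CPM in the input. Under scaling by upper quartile, by library size alone and by the authors' size factors 1 of the 5 was higher and 1, 3 and 1 were lower. Of the 9989 genes tested 2574, 2209 and 2750 were higher there, and 5719, 6347 and 5384 lower.

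Deadenylases, the enzymes and scaffolds that shorten the poly(A) tail before decapping, were higher in 9 of 10 genes tested, with a median of 1.27, where 37.1% of all genes tested were higher. Not3, a subunit of the CCR4-NOT complex, had 1313 and 1471 CPM in PABP IP 1 and 2, against 204 and 167 CPM in input 1 and 2 (log2 2.91 ± 0.14 SE, adjusted p = 4.92e-12). The subunit gene Not10 was the exception, with 23.9 and 23.0 CPM in the IP, against 54.6 and 68.4 CPM in the input (log2 -1.40 ± 0.14 SE, adjusted p = 9.59e-08). Subunits of this complex were thus called in both directions.

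Among 15 tested genes of translational repression, 10 were higher and 3 lower, with a median of 1.93, where 37.1% of all genes tested were higher and 38.8% lower. The number lower was 5 under 3 other scalings (upper quartile, library size, authors' factors). Under these, 5719, 6347 and 5384 of the 9989 genes tested were lower. AGO1, the effector of microRNAs, had the highest change, at 2086 and 2321 CPM in PABP IP 1 and 2, against 109.0 and 103.7 CPM in input 1 and 2 (log2 4.37 ± 0.15 SE, adjusted p = 1.14e-13). The 3 lower genes were nos (-4.20), exu (-2.09) and bru1 (-1.81), which act in the female germline. Other genes of the list that act there too, such as pum (2.65), brat (2.74) and yps (2.19), were higher. BicC, another germline repressor of the list, had 0 counts in all 4 libraries. As for cup, this is not read as an absence of BicC RNA, and the cause of the 0 was not tested.

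Of 12 tested genes of the exosome, which degrades RNA from its 3′ end, and of its Ski partners, 2 were higher and 5 lower, with a median of -0.10, and the share lower is near the 38.8% of all genes tested. Rrp6, a nuclease subunit, was the highest (1.49 ± 0.10 SE, adjusted p = 6.34e-10) and Dis3, the other nuclease, the lowest (-0.89 ± 0.12 SE, adjusted p = 4.02e-06). Ski6 (1.01) was the second gene called higher. This list was sensitive to the libraries and their scaling, with between 2 and 10 genes lower over the alternatives, and without input 2 the number lower was 2. The number was 10 at library size alone, where 6347 of the 9989 genes tested were lower. All 6 genes of stress granules, which hold stalled initiation complexes, were higher, where 37.1% of all genes tested were. Among these 6 genes rin was the highest (3.54) and lig the lowest (1.41), with a median of 2.18. Differences between these lists and the P-body components were not tested.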

How the data were processed

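Per the submitters' processing notes, reads were handled with STAR 2.7.3a, cutadapt 2.9, featureCounts of Subread 2.0.0, SAMtools 1.10 and DESeq2. Not given in the sources used here were the settings, strandedness and genome build. The library kit was Ovation SoLo, per the labels' protocols. The deposited table gives raw counts of reads per gene, with a gene length in bases per the file headers. Its 1 unnamed row, at most 0.000418% of any library, was dropped. The authors' deposited table holds log2 fold changes, a Wald score, p-values, and a normalized signal per library, equal to the count divided by 1 size factor (3.22, 3.68, 1.09 and 1.51 for PABP IP 1 and 2 and input 1 and 2) for 100% of values within 0.01 reads or a relative 1e-04. It also holds a base mean as a normalized signal, which differs from the mean of these 4 columns, per the file headers and values.

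The main test was the two-sided quasi-likelihood test of edgeR 4.0.16 (R 4.3.3; glmQLFit, glmQLFTest) on counts that passed filterByExpr at a minimum of 10, with TMM factors and Benjamini-Hochberg adjustment over the 9989 genes tested at 0.05. Standard errors are the size of the log2 fold change over the square root of F, and 95% intervals use its t distribution. Both pairs of replicates exceeded sampling noise (chi-square over its degrees of freedom, 6.70 for the IP and 2.54 for the input), and every library was kept as its own replicate. The test was checked on simulated counts. Alternatives were 4 other scalings, 2 other count filters, DESeq2 1.42.0, limma-voom (limma 3.58.1), a replicate block, a threshold of 0.01, and fits that each omit 1 library. Ratios and shares used Python 3.11.15 with scipy 1.17.1.

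The genes and lists were chosen with earlier results of these data known. The rule named all 9 genes, the highest and lowest gene of each list, genes called against their list's direction, and the 3 nearest genes to the members of highest and lowest fold change. LSm1, LSm7, Ski6, osk, orb, Yp1, pum, brat, yps and genes at 0 counts were named after their values were seen, as were the pairs chosen for ratios. The RefSeq table of assembly Release 6 plus ISO1 MT served for names, lengths and overlaps only, with no coordinates printed. A listed deadenylase symbol, PAN3, was not matched and is not analysed here.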

Additional observations from a re-analysis of the deposited data

How the results depend on the processing

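DCP2, Edc3, Ge-1 and Patr-1 were called higher under all 14 alternatives, at log2 fold changes of 2.76 to 3.79, 2.35 to 3.34, 1.08 to 2.01 and 0.66 to 1.62. With upper-quartile factors, library size alone and the authors' size factors, the median of the 8 genes was 0.39, 0.15 and 0.50, and 3, 4 and 3 of them were lower; none was lower in DESeq2 (0), at an adjusted p of 0.01 (0) or without input 2 (0), and leaving out each library gave 0 to 1. With upper-quartile factors, library size alone and the authors' size factors, 5719, 6347 and 5384 of all 9989 genes tested were lower. The median over all genes tested was -0.71, -0.95 and -0.59. Under the same 3 scalings tral had -0.12, -0.36 and -0.0094, pcm -0.55, -0.79 and -0.44, and me31B stayed below 0. The log2 fold change of me31B turned positive but uncalled with RLE (0.061), no count filter (0.057), a CPM filter (0.0035) and DESeq2 (0.060), and ran from -0.18 to 0.14 with each library left out. Under upper-quartile factors, library size alone and the authors' size factors, 1, 1 and 1 of 5 LSm ring genes were higher and 1, 3 and 1 lower. Of 12 exosome and Ski genes 9, 10 and 8 were lower there, and of 15 translational repressors 5, 5 and 5. Of all 9989 genes tested 5719, 6347 and 5384 were lower. With library size alone 2 deadenylases were lower and 1 exosome or Ski gene higher; RLE and no count filter each gave 4 higher in that list, and DESeq2 gave 3 lower. Leaving out each library gave 2 to 5 lower in it. The median of all genes moved with the scaling, and the causes of these shifts were not tested. Same-numbered IP and input libraries did not deviate together (r = -0.090 across genes between PABP IP 1 and input 1). This correlation cannot show whether same-numbered libraries share an extract, and the main test did not pair them. With the replicate block, 5 of the 8 were higher and 1 lower. In all 7477 genes were called with it, against 7581 without it. Precision is least for DCP1 in the input, with 138 and 272 counts.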

Other observations

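The authors' deposited table lists a base mean of 824 for DCP2 beside a mean of 1240 over its 4 library columns, and for tral 1682 beside 3018. For the 8 measured genes the base mean was below the mean of the 4 columns in each case, so it is not a mean of these libraries alone.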
